A study of Mus musculus with 2 samples.

Results

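The 7 genes described here act at the brakes and the motor of the cell cycle. Of these, 5 are arrest or p53 target genes (Cdkn1a, Cdkn2b, Btg1, Ccng2 and Bbc3), and Cdk6 and Mcm7, which drive the cycle, serve for comparison. They are 7 of 49554 annotated mouse genes, 21631 of them protein-coding. They were chosen on the positions of the Foxp2 peaks themselves, since each has a peak summit inside the gene or within 150 kb of it. That every one has a peak is therefore a property of the choice and not a result. In all, 10 of 944 peaks met this distance.

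The peaks came from 1 Foxp2 ChIP library of C1.1 cells, a mouse kidney tubular epithelial line that carried a stably selected CRISPR activation plasmid for Foxp2, after fixation in 1% formaldehyde. The 1 input library, DNA of the same activated cells before the pull-down, entered only as the control of the peak caller. No cells without activation, no control antibody and no replicate were compared, so no value below separates the activated state from another state or carries a replicate error. The labels do not say whether the selected cells were a clone or a pool. Tubular markers could not be checked, since a peak list measures no expression. Within the 944 peaks the fold over input ranged from 2.84 to 38.8 with a median of 5.13. The 8 lowest peak numbers, which by the order of −log10 q would be the most significant calls, were absent from the list.

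Foxp2 is a forkhead transcription factor, a family that binds DNA through a winged-helix domain at sites built around the letters TGTTTAC. Progress from G1 into S phase is driven by cyclin-dependent kinases, whose activity is opposed by inhibitor proteins such as p21 and p15. The tumour suppressor p53 switches on genes that stop the cycle, p21 first among them, and genes that start apoptosis. In injured kidney tubules, arrest of epithelial cells is associated with failed repair and fibrosis, which is the setting the series names.

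Sequence was at hand for a part of 5 of the 10 peaks, those that overlap a RefSeq promoter window. It is shown first because 4 of their summits lay within 20 bp of a forkhead motif. The window shown covers 154 of 201 bp of the Btg1 peak, 300 of 340 at Bbc3 and 86 of 226 at Mcm7. At Ccni it covers 300 of 383 bp and at Ccng2 236 of 293. Bases of these peaks outside a promoter window were not searched. The bases under the other 5 peaks, at Cdkn1a, Cdkn2b and Septin11 and both at Cdk6, were not analysed here. The Bbc3 peak touches the windows of 2 starts, and the one that holds its summit is shown. Ccni, an atypical cyclin gene 61078 bp from Ccng2, is included because 1 of the peaks counted for Ccng2 sits at its start. Each window is from RefSeq on GRCm38.p6, runs from 250 bases before to 50 after a listed start of transcription, and is written 5′ to 3′ on the strand of the gene. Capitals mark TGTTTAC or its reverse complement, and at Ccng2, whose window lacks it, the shorter core TGTTT on the reverse strand.
Btg1, chr10:96616751-96617050, plus strand: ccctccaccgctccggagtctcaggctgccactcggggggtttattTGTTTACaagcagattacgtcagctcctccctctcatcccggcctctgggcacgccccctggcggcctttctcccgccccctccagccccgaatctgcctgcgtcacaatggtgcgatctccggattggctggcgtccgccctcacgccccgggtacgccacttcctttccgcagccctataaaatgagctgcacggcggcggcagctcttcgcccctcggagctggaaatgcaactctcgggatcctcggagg
Bbc3, chr7:16310011-16310310, plus strand: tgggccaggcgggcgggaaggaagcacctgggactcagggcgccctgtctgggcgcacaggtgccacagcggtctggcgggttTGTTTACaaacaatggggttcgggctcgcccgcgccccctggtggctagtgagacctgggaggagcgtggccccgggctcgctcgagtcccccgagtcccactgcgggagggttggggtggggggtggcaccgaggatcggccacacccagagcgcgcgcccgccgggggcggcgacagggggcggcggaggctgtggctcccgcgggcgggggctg
Mcm7, chr5:138171217-138171516, minus strand: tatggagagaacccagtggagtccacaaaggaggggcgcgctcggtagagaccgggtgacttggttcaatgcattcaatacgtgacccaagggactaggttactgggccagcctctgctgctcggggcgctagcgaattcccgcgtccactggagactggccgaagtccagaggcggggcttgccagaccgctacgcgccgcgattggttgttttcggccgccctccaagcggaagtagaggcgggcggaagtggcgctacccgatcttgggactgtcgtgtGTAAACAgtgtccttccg
Ccni, chr5:93206446-93206745, minus strand: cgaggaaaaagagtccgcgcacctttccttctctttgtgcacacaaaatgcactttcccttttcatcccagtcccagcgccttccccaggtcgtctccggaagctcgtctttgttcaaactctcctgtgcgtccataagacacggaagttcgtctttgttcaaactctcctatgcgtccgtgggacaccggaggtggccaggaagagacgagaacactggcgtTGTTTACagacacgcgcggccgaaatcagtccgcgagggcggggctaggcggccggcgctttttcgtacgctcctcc
Ccng2, chr5:93267323-93267622, plus strand: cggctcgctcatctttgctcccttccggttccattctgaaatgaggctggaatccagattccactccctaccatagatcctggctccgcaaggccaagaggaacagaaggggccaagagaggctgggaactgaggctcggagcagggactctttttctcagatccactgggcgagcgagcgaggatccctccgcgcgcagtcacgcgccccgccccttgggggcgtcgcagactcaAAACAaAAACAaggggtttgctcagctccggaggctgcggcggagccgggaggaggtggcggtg

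In 4 of these 5 windows a forkhead match sat close to the summit. At Btg1 the centre of TGTTTAC lay 1 bp upstream of the summit (match at 96616797 to 96616803, summit at 96616801). At Bbc3 it lay 17 bp upstream of the summit (16310094 to 16310100, summit at 16310114), and the stretch after it adds a second core on the opposite strand, centred 11 bp from the summit. At Mcm7 the match was on the reverse strand, 16 bp upstream of the summit (138171228 to 138171234, summit at 138171215). At Ccni it lay 9 bp downstream of the summit (93206516 to 93206522, summit at 93206528). Each of these matches lay wholly inside its peak. The Ccng2 window held no TGTTTAC, and its 2 cores, 119 and 125 bp downstream of the summit, fell just outside the peak. That window covers 236 of the 293 bp of the peak, and the rest of the peak was not analysed here.

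**Figure D1:**
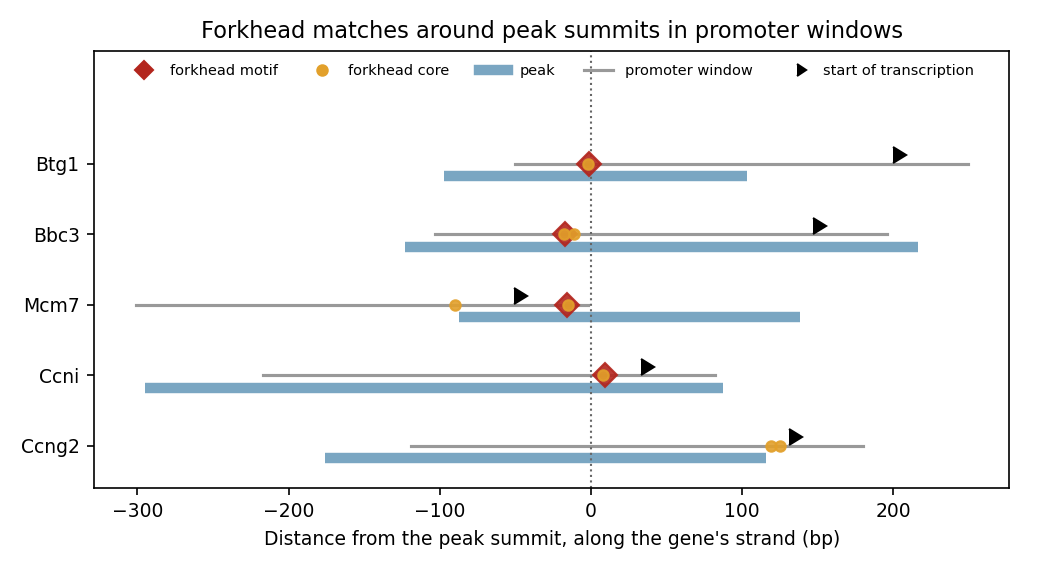
Positions of the forkhead motif (diamonds) and the shorter core (circles) in 5 promoter windows, in bp from the peak summit along the strand of the gene. Thick bars are the peaks, grey lines the windows, and the base of each triangle is the start of transcription; the motif lies 1 to 17 bp from the summit at Btg1, Bbc3, Mcm7 and Ccni, and Ccng2 has cores at 119 and 125 bp.

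Among all promoter windows, those with a summit held the motif more often than those without. Of 32585 distinct promoter windows, 52 held a summit (44 summits, since neighbouring starts share some), and TGTTTAC on either strand occurred in 16 of them (30.8%). It occurred in 3.63% of the 32533 windows without a summit and in 3.67% of all windows. In 15 of those 16 windows the motif was centred within 25 bp of the summit, and the largest distance was 43 bp. These 16 windows include those of Btg1, Bbc3 and Ccni. The Mcm7 summit lay 2 bases beyond the end of its window and is not among them. With windows that a peak overlaps counted instead, a setting chosen after the data were seen, 21 of 81 (25.9%) held the motif. The core TGTTT, which every TGTTTAC contains, was in 75.0% of summit windows and 50.6% of the others.

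The other letters searched on both strands lay close to the summit in fewer windows. The GC box GGGCGG occurred in 48.1% of summit windows and 35.9% of the others, and in 8 of 25 such windows a match lay within 25 bp of the summit. The CCAAT box CCAAT occurred in 38.5% and 37.6%, with 2 of 20 within 25 bp. The AP-1 motif TGACTCA (11.5% and 5.22%, 1 of 6 within 25 bp), the E-box CACGTG (7.69% and 7.20%, 0 of 4) and the E2F motif TTTCGCGC (3.85% and 0.320%, 0 of 2, both from 1 summit) were rarer. CAAATT, a core reported for Foxp2, occurred in 0 of 52 summit windows and 11.0% of the others. The p53 half-site occurred in 7.69% and 8.36%. These shares are descriptions of letters, and no window was matched on base composition, which had a median GC content of 55.7% with a summit, 53% over all windows and 64.7% in the 11 windows of the 7 genes.

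**Figure D2:**
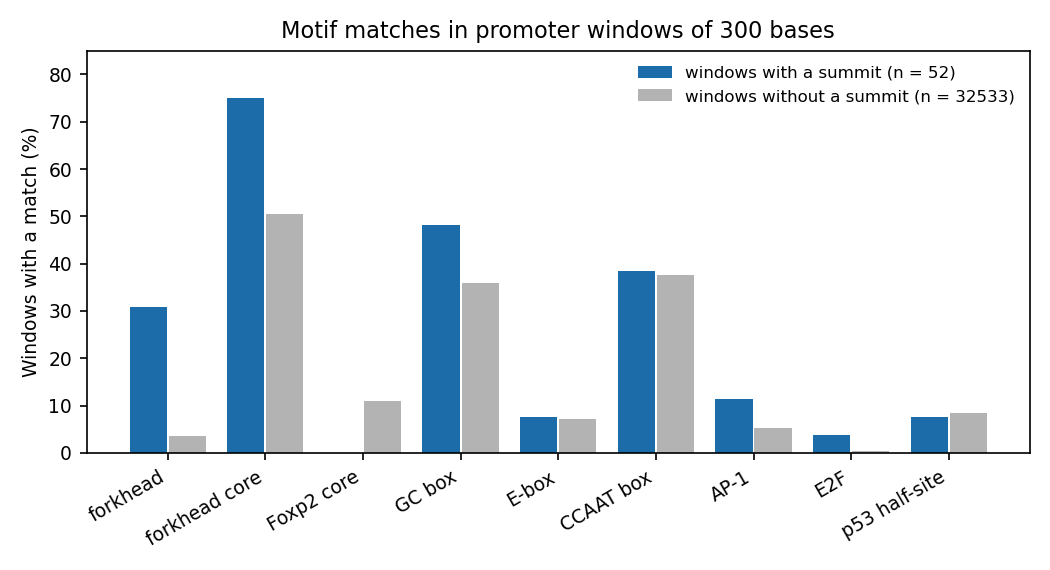
Share of promoter windows of 300 bases that hold each motif on either strand, in percent, for the 52 windows with a summit (blue) and the 32533 without (grey). The forkhead motif stands at 30.8% against 3.63%, while the E-box, the CCAAT box and the p53 half-site stand at nearly equal heights.

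Btg1, an antiproliferative gene of the BTG and TOB family, had the largest fold of the 10 peaks. Its only peak (chromosome 10, 96616704 to 96616904, 201 bp wide) had a summit 200 bp upstream of the start of the gene (96617001 to 96622813). The ChIP pileup of 60 reads stood over a control background of 3.09 scaled reads, the lowest value in the list and shared by 408 peaks, and the fold was 14.9 (95% counting interval 11.4 to 19.1). It ranked at 13 of 944, and 98.4% of peaks had a smaller fold. The nearest other gene to the summit was the noncoding Gm33843 at 18056 bp, and the next coding gene lay 284525 bp away. The next summit on the chromosome was 2061207 bp away, so this peak stood alone.

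Bbc3 encodes PUMA, a BH3-only protein that p53 induces and that starts apoptosis. Its peak (chromosome 7, 16309991 to 16310330, 340 bp wide) lay inside the gene (16308398 to 16318334), which has 3 listed starts. The summit was 147 bp upstream of the middle one, at 16310261. A pileup of 33 reads over a background of 3.13 gave a fold of 8.23 (5.74 to 11.5), larger than in 83.2% of peaks. The nearest other gene was Sae1 at 10122 bp, and the next summit was 2971786 bp away. The window of the first start, at 16309583, was not touched by the peak and held 5 GC boxes and no forkhead core.

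Ccng2 encodes an atypical cyclin that is associated with arrest, and it had 3 summits within 150 kb. The nearest (chromosome 5, 93267266 to 93267558) lay 131 bp upstream of the start, with 27 reads over 4.46 and a fold of 5.13 (3.44 to 7.38), which is near the median of the whole list. The other 2 lay 61045 and 135867 bp upstream and were nearer to other genes. The first of these (93206441 to 93206823) was inside 2010109A12Rik and 33 bp upstream of the Ccni start, with Septin11 as the other coding gene nearer than Ccng2. Its 47 reads were the second-largest pileup of the 10. Its background of 9.09 was the highest of the 10, and its fold was 4.76 (3.52 to 6.30). The peak at 93131560 to 93131746 lay inside Septin11, with 11 genes nearer than Ccng2, of which the coding ones were Septin11, Ccni, 2010109A12Rik and Sowahb. It was the weakest of the 10, with 16 reads and a fold of 3.57 (2.13 to 5.67). Only the summit at the start thus had Ccng2 as its nearest gene.

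Cdkn1a encodes p21, the inhibitor through which p53 arrests the cycle, and had 1 weak peak. It lay inside the gene (chromosome 17, 29095229 to 29095423), 1495 bp downstream of the nearer of 2 listed starts and 4285 bp downstream of the other. A pileup of 20 reads over 4.04 gave a fold of 4.17 (2.62 to 6.33), and the −log10 q was 4.41. A smaller fold was found for 23.5% of peaks. The peak overlapped neither promoter window. Neither window held TGTTT, which says nothing of the bases under the peak, and these were not analysed here. The upstream one held 2 exact matches to the p53 half-site RRRCWWGYYY. There R is A or G, W is A or T, and Y is C or T. The stretch around the match nearer to the start is shown because p53 is the known regulator of the gene, with exact matches in capitals. The bases tgacatgttc that follow GAACATGTCT differ from the pattern only at their first base and stay in lower case.
Cdkn1a, chr17:29090903-29090962, plus strand: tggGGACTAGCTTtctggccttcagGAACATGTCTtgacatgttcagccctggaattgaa
The half-site at 29090928 to 29090937 lay 4327 bp from the summit. Trp53cor1, a p53-induced noncoding RNA gene, was the nearest other gene, 16138 bp from the summit. The next peak lay 215285 bp from Cdkn1a and 2789 bp from Pi16, with a fold of 6.25.

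Cdkn2b encodes the inhibitor p15, which blocks Cdk4 and Cdk6, and was the only one of the 7 with no summit within 10 kb. Its peak (chromosome 4, 89445071 to 89445306) lay 134131 bp upstream of the gene and inside the noncoding gene Gm12610, with the pseudogene Gm12608 also nearer than Cdkn2b. A pileup of 37 reads over 3.09, the lowest background in the list, gave a fold of 9.28 (6.61 to 12.7), larger than in 88.0% of peaks. No coding gene lay nearer, and Cdkn2a, the neighbouring inhibitor gene, was 150544 bp from the summit. A pair of summits in Gm12610 fell just outside the 150 kb, at 164922 bp (fold 7.57, 5.19 to 10.7) and 175025 bp (9.04, 6.40 to 12.4), and Cdkn2b was their nearest coding gene as well. Just inside the distance were this peak and the one in Septin11, at 135867 bp from Ccng2 with a fold of 3.57. Chromosome 4 carried 21 of the 944 peaks.

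Among the drivers, Cdk6 encodes the G1 kinase that p15 inhibits and Mcm7 a subunit of the replicative helicase. Cdk6 (chromosome 5, 3341004 to 3531008) had a summit inside the gene, 1856 bp downstream of its listed start (3345637 to 3345843), with 26 reads over 4.54 and a fold of 4.87 (3.24 to 7.05). A second peak (3322067 to 3322298) lay 18790 bp outside the gene and inside the noncoding Gm36470, with a fold of 7.04 (4.88 to 9.84). The Cdk6 window was touched by neither peak. It held no forkhead core, and the bases under both peaks were not analysed here. Mcm7 had 1 peak (138171077 to 138171302) whose summit lay 51 bp downstream of the second of its 2 listed starts, with 41 reads over 5.85 and a fold of 6.13 (4.44 to 8.27). Ap4m1 lay 806 bp from that summit and overlaps the Mcm7 gene. Mir106b, Mir93 and Mir25, microRNA genes within Mcm7, lay 5397, 5605 and 5811 bp from it.

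**Figure D3:**
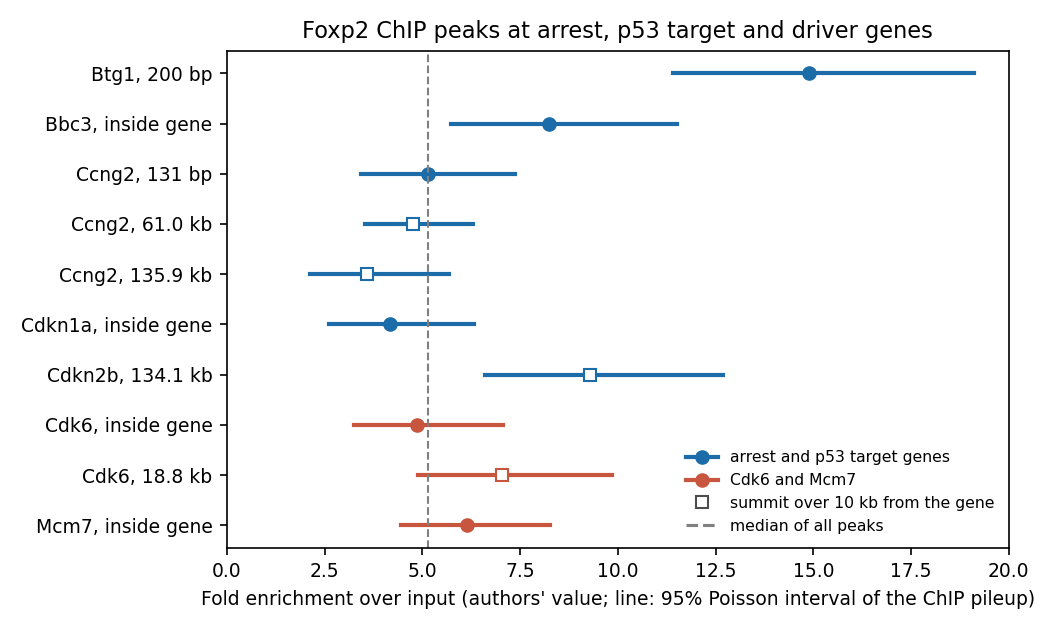
Fold over input of the 10 peaks, with the 95% Poisson interval of the ChIP pileup as a line, by gene and distance from the gene. Open squares lie over 10 kb from the gene and the dashed line is the median of 944 peaks (5.13); only the Btg1 interval (11.4 to 19.1) lies above all 3 driver intervals.

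The folds of the arrest and p53 target genes, called arrest genes below, and those of the drivers overlapped. The 7 peaks of the arrest genes had folds from 3.57 to 14.9 and the 3 of Cdk6 and Mcm7 from 4.87 to 7.04. The 3.57 was the peak inside Septin11, which, like the one at the Ccni start, had coding genes nearer than Ccng2. The Cdkn2b peak lay 134131 bp from its gene. With the largest fold taken for each gene, the median was 8.23, the fold of Bbc3, over the 5 arrest genes and 6.58 over the 2 drivers. With only peaks within 10 kb it was 6.68 over 4 arrest genes and 5.5 over the 2 drivers. The interval of Btg1 lay above those of all 3 driver peaks, those of Bbc3 (5.74 to 11.5) and Cdkn2b (6.61 to 12.7) overlapped the interval of each driver peak, and Cdkn1a had a smaller fold than any driver peak with an interval that overlapped them. The intervals hold only the counting error of the reads at the summit, and the genes were chosen with the values known, so no test was made. Pileups ran from 16 to 60 reads at arrest genes, with the 16 at the Septin11 peak, and from 26 to 41 at drivers. The background was 3.09 at Btg1 and Cdkn2b and 3.13 at Bbc3. It ran from 3.76 to 9.09 at the other arrest gene peaks and from 3.69 to 5.85 at drivers.

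Positions of the 2 sets are given as description only, since all 7 genes were chosen for a summit within 150 kb. A summit inside the gene or within 10 kb was found for 4 of 5 arrest genes and 2 of 2 drivers, where 2.71% of all coding genes and 2.07% of all genes had one. A summit within 300 bp of a listed start was found for Btg1, Ccng2 and Bbc3 among the arrest genes and for Mcm7 among the drivers, where 0.295% of 17274 coding genes with a listed start had one. Within 150 kb the share of coding genes was 13.8%. Since the choice of genes used these positions, nothing is read from the contrast between the sets or with these shares. They varied by chromosome. On chromosome 5, which holds Ccng2, Cdk6 and Mcm7, 4.57% of coding genes had a summit within 10 kb and 22.0% within 150 kb, while on chromosome 4, which holds Cdkn2b, it was 0.753% and 4.82%.

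**Figure D4:**
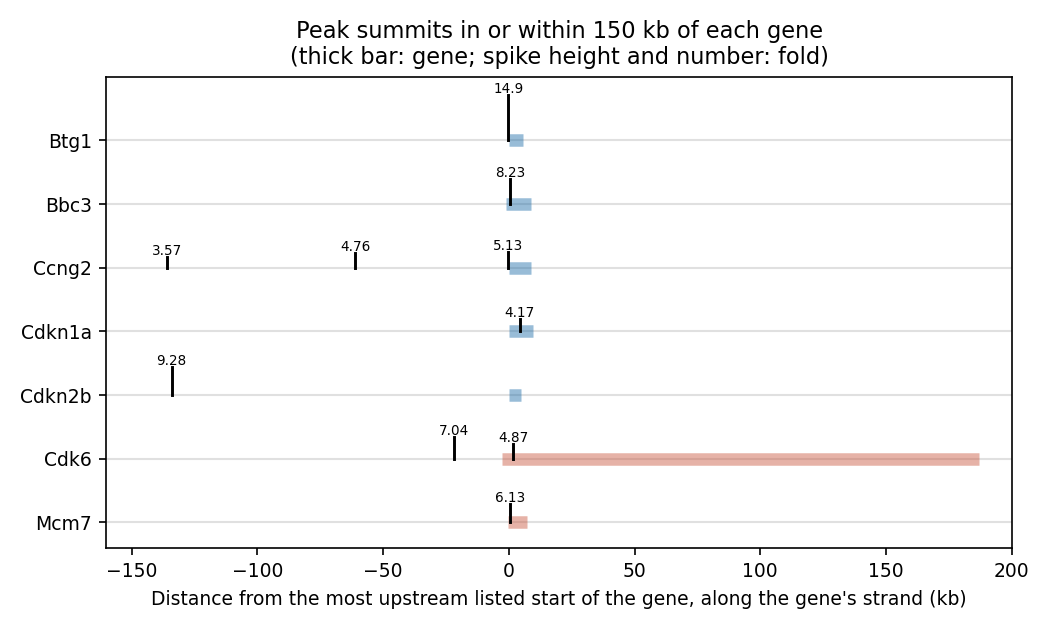
Summits in or within 150 kb of each gene, in kb from its most upstream listed start along its strand. Thick bars are genes, blue for arrest and p53 targets and red for Cdk6 and Mcm7, and each spike carries its fold; Btg1, Bbc3, Ccng2 and Mcm7 have a summit near a start, Cdkn2b has one only at 134131 bp.

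Over 10 lists of the same pathways that hold 124 genes, 7 (5.65%) had a summit inside or within 10 kb, and 6 of these are genes described above, chosen for their peaks. Both the whole lists and the remainder are shaped by that choice, which puts genes with peaks among the 7 and takes them out of the rest, so neither share is read against the 2.71% of coding genes. Among the remaining 117 genes Ccni had one (0.855%). Within 50 kb it was 7 of the 117 (5.98%) and within 150 kb 17 (14.5%), where 13.8% of all coding genes had one within 150 kb. None of the other 6 inhibitors of cyclin-dependent kinases, of the other 5 BTG and TOB genes, of the other 24 p53 targets of arrest, repair and stress or of the other 9 p53 targets of apoptosis had a summit within 10 kb. The same held for p53 with its regulators (12 genes), the Rb and E2F families (11), the other 17 cyclins, kinases and Cdc25 genes, the other 21 licensing and helicase genes, and the regulators of G2 and mitosis (12). Of the 3 other atypical cyclins, Ccni was the one counted. The median distance to the nearest summit was 782 kb for the 117 genes and 729 kb with the 7 included, and that of all coding genes was 1050 kb.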

How the data were processed

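The authors deposited 1 peak list, called with MACS2 against the input on mm10, per the submitters' processing notes and the labels. Which aligner, read filters and versions were used is not stated there. Folds are the authors' values of pileup over background at the summit, which the recovery below fits with 1 added to both. For 408 of the 944 peaks, among them those of Btg1 and Cdkn2b, the recovered background was the same lowest value, 3.09. The deposited −log10 p and −log10 q came from the caller. The deposited score is the whole part of 10 times −log10 q, with a ceiling of 1000, and was not used. Of 983 peak numbers, 39 were absent from the list.

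Library depth is unknown. For each peak the whole pileup and the background were recovered from fold, as (pileup + 1) / (background + 1), and the Poisson p. The largest miss was 2.05e-05 in −log10 p, and the next best pileup missed by at least 0.175. On simulated data 100% of 187 pileups were found. These data were made with the same formula, so they check only the arithmetic of the recovery and not the formula itself. Intervals are exact 95% Poisson intervals with the background held fixed, and reads are not independent molecules.

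Summits, 1-based, were compared with RefSeq gene bounds of GRCm38.p6 on 20 chromosomes, and with RefSeq promoter windows, which matched 7 of 7 genes. Exons, introns and UTRs were not analysed here. Motifs were 9 fixed strings or patterns. The p53 half-site reads the same on both strands. Every peak in or within 150 kb of the 7 genes was named, with the nearest gene and any nearer coding gene, and list genes with a summit within 10 kb. Members and lists were chosen with earlier results of these data known. Python 3.11.15, pandas 2.3.3 and scipy 1.17.1 were used. Alternatives were the −log10 q, fold, distance and peak edge choices in the closing section.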

Additional observations from a re-analysis of the deposited data

How the results depend on the processing

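Of 22 alternatives on the counts and medians, 19 stayed close to the value reported. Close meant within 1.5 times for counts and within the 95% interval for the motif share. For the median folds the bounds were 5.74 to 11.5, the Bbc3 counting interval, and 4.66 to 9.06, from those of the largest Cdk6 and Mcm7 peaks. These bounds hold no spread between genes. When peaks below the median fold were dropped, 6 peaks in place of 10 lay in or within 150 kb of the 7 genes, and 4 list genes in place of 7 had a summit within 10 kb, since that setting keeps fewer peaks. The peaks lost were those inside Cdkn1a and Cdk6 and the 2 farther ones of Ccng2. Cdkn1a was lost also with −log10 q of at least 5. Within 50 kb, 13 of 124 list genes had a summit, 6 of them among the 7 chosen genes, and 7 of the other 117 (5.98%), beside 6.13% of coding genes. Of 40 alternatives on single lists, 9 moved. Within 50 kb the apoptosis targets went from 1 to 3, licensing and helicase from 1 to 4 and G2 and mitosis from 0 to 1. The other 6 were losses of 1 gene with stricter peaks. No paired analysis was possible because there is 1 ChIP library and no result comes from a test. The single library limits every value, and pileups of 16 to 60 reads set the width of the intervals.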

Other observations

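A longer run of bases was shared by the windows of Btg1 and Bbc3, a search chosen after both sequences had been seen. The longest run common to them on either strand was TTTGTTTACAA, 11 bases, which contains the forkhead motif. It occurred in 11 of 32585 promoter windows (0.0338%), among them the 2 it was taken from. Of the other 9, 0 held a summit, and since only 52 of the 32585 windows did, nothing is read from this. The longest run shared by Bbc3 and Mcm7, AGCGGTCTGGC, was also 11 bases long and held no forkhead core, and it occurred in 3 windows. Runs of 9 or 10 bases were shared by the other 4 pairs of these windows and that of Ccng2.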
